A study of Mus musculus with 4 samples.

Results

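The class II-high cells of the mouse brain are described here, that is, 258 of the 36876 cell barcodes in 4 single-cell RNA libraries. A barcode was taken when it held at least 1000 unique molecular identifiers (UMIs, counted transcripts), at most 15.8% mitochondrial UMIs and at least 20 UMIs of H2-Aa, H2-Ab1 and H2-Eb1 together. It also had to hold under 30 UMIs of C1qa, C1qb and C1qc per 10000, at most 5 of Mrc1, Pf4 and Cbr2, and at most 2 of Cd79a and Cd79b, limits that set aside microglia, border macrophages and B cells. The cells were thus chosen by the levels of 11 genes, so their levels are given as a description with no test, and they are left out of every count of called genes. The working name of the set was dendritic and monocytic cells, but the data went against it for most members. Ptprc, which encodes the pan-leukocyte antigen CD45, had a UMI in 102 of the 258 cells, whereas Slc47a1, which encodes an organic cation exporter, had at least 3 UMIs in 148. The set is therefore called by its rule.

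Whole brains of male C57BL/6J mice were dissociated with enzymes, depleted of red cells, myelin debris and dead cells, and profiled with 10x Genomics 3′ chemistry. Mice were adult (3 to 4 months) or aged (23 to 24 months) when they began 8 weeks on a diet with 1% cellulose and either 0% or 5% inulin, a fermentable plant fiber. Per the paper, the adult mice came from an in-house colony and the aged mice from the National Institute on Aging. Age and the source of the mice thus cannot be told apart in any comparison of ages. There was 1 mouse for each age and diet, so each age and each diet had 2 mice and the mouse was the replicate in every test. The libraries held 115814810 UMIs (adult, 0% inulin), 111648775 (adult, 5%), 88248117 (aged, 0%) and 108131200 (aged, 5%), and values below keep this order of mice.

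MHC class II molecules are pairs of an alpha and a beta chain that carry peptides to the cell surface, where CD4 T cells read them. Cd74, the invariant chain, guides new class II to endosomes and blocks its groove, H2-DM loads peptide there in place of the Cd74 fragment, and H2-O holds H2-DM back. Dendritic cells, B cells and macrophages make class II through the coactivator Ciita, which docks on a fixed set of factors at the X and Y boxes of class II promoters, and interferon-gamma can switch Ciita on in other cells. In a healthy brain, class II is known mainly from the meninges, choroid plexus and perivascular spaces.

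The class II genes lie together on chromosome 17 (GRCm38), with H2-Aa at chr17:34282744-34287823 on the minus strand, H2-Ab1 at chr17:34257689-34269419 on the plus strand and H2-Eb1 at chr17:34305867-34316674 on the plus strand. Promoter windows from RefSeq (GRCm38.p6, 250 bases before to 50 after each gene start) were held for 8 of the 10 class II genes searched for. They are shown because the same letters stand before the RefSeq starts of H2-Aa and H2-Eb1, which helped to choose the cells. These letters also stand before the RefSeq starts of H2-DMb1, H2-Oa and H2-Ob, loading genes described below. By GENCODE coordinates H2-DMb1 starts at chr17:34153072, so its printed stretch lies within the gene. The stretch of H2-Oa reaches the GENCODE start of that gene at chr17:34092340. The letters CNNGNAAC (X box) were in 39.1% of all 32851 windows and the letters GATTGG (Y box) in 16.1%, counting both strands. The pair, in this order and 10 to 30 bases apart on the same strand, was in 91 windows (0.277%), 6 of them of class II genes; the spacing was chosen after these sequences had been seen. Each line runs 5′ to 3′ on the gene's strand with the X and Y letters in capitals.
H2-Aa: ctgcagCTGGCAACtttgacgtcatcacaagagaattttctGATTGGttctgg
H2-Eb1: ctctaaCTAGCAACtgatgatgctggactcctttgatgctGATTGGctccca
H2-Eb2: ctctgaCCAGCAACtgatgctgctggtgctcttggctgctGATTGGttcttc
H2-DMb1: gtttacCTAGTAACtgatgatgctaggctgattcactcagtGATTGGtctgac
H2-Oa: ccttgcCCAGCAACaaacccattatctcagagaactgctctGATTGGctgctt
H2-Ob: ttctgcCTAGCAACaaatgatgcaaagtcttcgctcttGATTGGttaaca
They lie at chr17:34287861-34287913 (H2-Aa, minus strand), chr17:34305767-34305818 (H2-Eb1), chr17:34325534-34325585 (H2-Eb2), chr17:34153088-34153140 (H2-DMb1), chr17:34092294-34092346 (H2-Oa) and chr17:34238809-34238858 (H2-Ob, all on the plus strand). The windows of H2-DMa and H2-DMb2 did not hold the pair of letters, and those of H2-Ab1 and Cd74 were not analysed here. A match is a description of letters, and H2-Eb2, which has the pair, had 1 UMI in all 258 cells.

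The share of class II-high cells was higher in both aged mice than in both adult mice. There were 47, 36, 82 and 93 such cells among the 7875, 8566, 6633 and 7867 cells that met the limits on depth and mitochondrial share. These are 0.597% (95% exact binomial interval 0.439 to 0.793), 0.420% (0.295 to 0.581), 1.24% (0.984 to 1.53) and 1.18% (0.955 to 1.45), intervals that cover counting error only. The adult mice averaged 0.509% ± 0.125 (SD, n = 2) and the aged mice 1.21% ± 0.0382 (n = 2), a ratio of 2.38, and the ages did not overlap. An exact two-sided permutation test over mice gave p = 0.333, the smallest p that 2 mice against 2 can give. The median mitochondrial share of the members' UMIs moved with age as well, at 4.15%, 5.48%, 8.44% and 6.79%, and its part in the age differences of the members was not tested. Between diets the mice overlapped, with 0.917% ± 0.452 on 0% and 0.801% ± 0.539 on 5% inulin (n = 2 each, exact permutation p = 0.667). Within each age the share was lower on 5% inulin, a pairing that this test did not use.

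Cells lay close to the limit of 20 class II UMIs on either side. Just within it, 41 members had 20 to 24 class II UMIs, and just outside it 61 cells that met the other limits had 15 to 19. The median member held 16334.5 UMIs, and 87 members lay above 22005 UMIs, which is 3 median absolute deviations over the median of all cells. Scrublet called 1 member a doublet, against 3.33% of all barcodes. A barcode sequence was shared with another library for 8 members, and for 0 of them was the cell with that barcode in the other library also a member.

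The cells formed 8 clusters, which fell into 3 groups once their values had been seen. In 2 clusters (91 cells) at least 90% of cells held Ptprc, in 5 clusters (157 cells) few did, and in the last (10 cells) Ttr, the transthyretin gene of choroid plexus epithelium, took more than 5% of UMIs. Ptprc-high cells numbered 27, 17, 21 and 26 in the mice, with a mean of 22.0 ± 7.07 in the adult mice and 23.5 ± 3.54 in the aged ones (SD, n = 2). Ptprc-low cells numbered 20, 15, 58 and 64, or 17.5 ± 3.54 against 61.0 ± 4.24, so the Ptprc-low numbers of the ages did not overlap while the Ptprc-high numbers did. The Ptprc-high cells made up 57.4%, 47.2%, 25.6% and 28.0% of the members and gave 45.9%, 24.2%, 12.2% and 12.2% of their UMIs. The Ttr-high cells numbered 0, 4, 3 and 3, with a median of 127304 UMIs, and matched the ependymal and choroid marker list. Of the 8 clusters, 0 differed in share between ages, with adjusted p from 0.533 to 1 (exact permutation over mice, Benjamini-Hochberg), where 2 against 2 could not have passed.

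**Figure D1:**
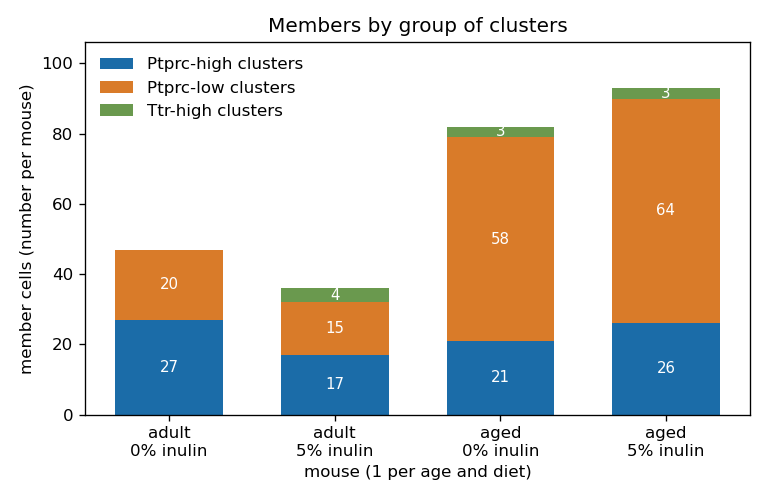
Number of class II-high cells in each of the 4 mice (vertical axis, cells), stacked by cluster group. The Ptprc-high part stays between 17 and 27 cells, while the Ptprc-low part is 15 and 20 cells in the adult mice and 58 and 64 in the aged mice.

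The largest cluster held 63 cells (23, 11, 10 and 19) and was conventional dendritic cell 2-like (cDC2-like), with all 10 markers of that list detected. Its leading genes over the other members were H2-Eb1, H2-Ab1, Cd52, H2-Aa, Crip1, S100a4, Cd74, Cd209a, Lsp1 and Mgl2, of which Cd209a and Mgl2 encode C-type lectins of these cells. Cd209a stood at 10.6 UMIs per 10000 against 0.146 in the other members. Its median cell held 478 class II UMIs, and Ciita was seen in 88.9% of its cells. It held 48.9%, 30.6%, 12.2% and 20.4% of the members. At a Leiden clustering resolution of 1.5 in place of 1, the cluster with most Cd209a and Mgl2 held 23.4%, 13.9%, 3.66% and 6.45%. The other Ptprc-high cluster held 28 cells (4, 6, 11 and 7), with Lyz2, the lysozyme of monocytes and macrophages, at 156 per 10000 against 1.99 and Plac8 at 21.7 against 0.542. It met 7 of 10 classical monocyte markers, but its leading genes also held the hemoglobin genes Hba-a1, Hba-a2, Hbb-bs and Hbb-bt and the endothelial genes Cldn5 and Flt1, so it stayed unnamed. Of the 16542 hemoglobin UMIs in all members, 16288 came from 1 of its cells, in the aged mouse on 5% inulin. Xcr1 and Clec9a, markers of cDC1, reached 2 UMIs together in 4 members, and Ccr7 and Fscn1, markers of migrating dendritic cells, in 3.

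Of the 5 Ptprc-low clusters 1 could be named from its markers. This fibroblast-like cluster held 40 cells (10, 8, 15 and 7) and led with Myoc, Rbp4 and Col1a1, with Myoc, which encodes myocilin, at 9.85 per 10000 against 0.00473 and Col1a1, a collagen chain, at 10.8. A cluster of 35 cells (3, 0, 8 and 24) led with Prg4 and Mal and had Cdh1 and Cldn11, an adhesion and a tight junction gene, among its leading genes. The others, of 34 (4, 3, 16 and 11), 21 (2, 3, 11 and 5) and 27 cells (1, 1, 8 and 17), stayed unnamed. Their leading genes included Ptgds, the prostaglandin D synthase, at 225 per 10000 against 14.4 in the first, Bche and Npr3 in the second and Fbln1, Bche and Gjb6 in the third. Across all 157 Ptprc-low cells Slc47a1 was seen in 100% at 6.20 per 10000, against 0.0230 in Ptprc-high cells. Foxc2, a forkhead factor, was at 2.92 against 0, Slc26a2, a sulfate transporter, at 13.3 against 0.199, and Col1a2 at 8.89 against 0.146.

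Class II itself was about an order of magnitude lower in the Ptprc-low cells. These levels are UMIs per 10000 of the summed UMIs, and since 3′ chemistry counts 1 tag per transcript they need no correction for gene length. H2-Aa stood at 77.4 in Ptprc-high and 6.68 in Ptprc-low cells, H2-Ab1 at 76.8 and 4.85, H2-Eb1 at 79.1 and 4.52, and Cd74 at 190.0 and 20.2. The median cell held 354 UMIs of the 3 chains in the Ptprc-high and 35 in the Ptprc-low group. Of the Ptprc-low cells 98 of 157 had under 40 class II UMIs, against 10 of 91 Ptprc-high cells. Cd74 relative to the 3 chains was 0.814 in Ptprc-high and 1.26 in Ptprc-low cells.

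**Figure D2:**
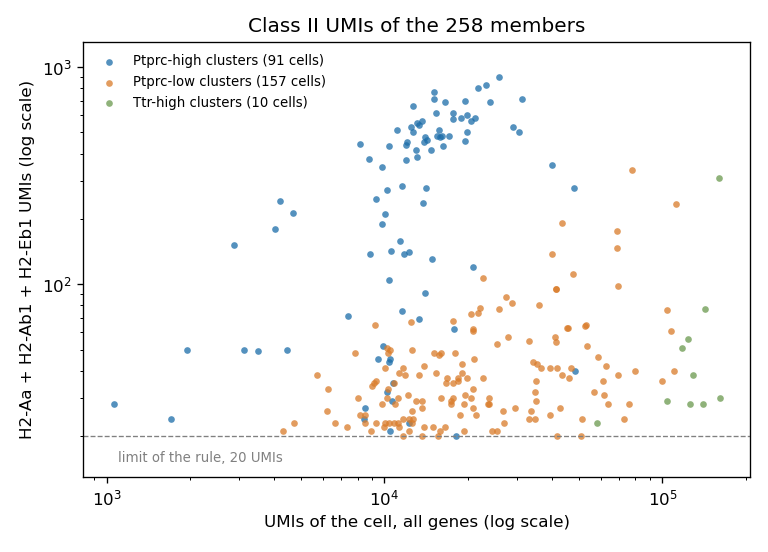
Each point is 1 of the 258 class II-high cells, with its UMIs over all genes (horizontal, log axis) and its summed H2-Aa, H2-Ab1 and H2-Eb1 UMIs (vertical, log axis), coloured by cluster group, and a dashed line at the limit of 20. The median is 354 class II UMIs in Ptprc-high and 35 in Ptprc-low cells, the groups overlap at the lower values, and the Ttr-high cells lie to the right.

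The loading genes split by group. H2-DMa stood at 8.96 in Ptprc-high and 1.33 in Ptprc-low cells, and H2-DMb1 at 7.09 and 1.79, each seen in at least 90% of Ptprc-low cells (90.4% and 97.5%). The second DM beta gene, H2-DMb2, was at 1.89 and 0.00449, and the H2-O genes H2-Oa and H2-Ob were at 1.47 and 0.629 in Ptprc-high cells against 0.00224 each in Ptprc-low cells, where each had 1 UMI. Among the cathepsins that trim Cd74, Ctss, the form of professional antigen-presenting cells, was at 11.5 and 0.334, while Ctsl was at 1.66 and 4.36. Ifi30, a thiol reductase that opens disulfides of antigens, was at 8.89 and 0.224.

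Of the control genes, Ciita was at 2.38 in Ptprc-high cells, 82.4% of which held it, and at 0.0493 in Ptprc-low cells (12.1%). The X box factors differed less, with Rfx5 at 0.0843 and 0.0920, Rfxap at 0.399 and 0.372 and Rfxank at 0.107 and 0.123. Ifngr1, a chain of the interferon-gamma receptor, was at 3.47 and 0.888 and was seen in 80.9% of Ptprc-low cells. Class I genes were higher in Ptprc-high cells but present in both, with B2m at 14.8 and 3.68, H2-K1 at 13.2 and 3.87 and H2-D1 at 20.4 and 5.33, where H2-K1 and H2-D1 are close paralogs whose counts are uncertain. Cd86, a costimulator of T cells, was at 0.935 and 0.0112, and Flt3, the growth receptor of dendritic cells, at 0.782 and 0. These are clusters of the cells themselves, so the contrasts are given without a test.

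Other leukocyte genes did not all follow class II. Tyrobp, an adaptor of myeloid receptors, was at 17.5 per 10000 in Ptprc-high and 0.283 in Ptprc-low cells, and Lyz2 at 55.3 and 0.157. The summed class II level was 233 and 16.05, where the limit of 20 class II UMIs holds up the lower value, so its ratio is not set beside those of the other genes. The 10 cDC2 markers summed to 23.4 and 0.182, and Mgl2, Tnfsf9 and Irf4 were at 0 in Ptprc-low cells. The sums of the plasmacytoid and the mature dendritic cell marker lists ran the other way, at 11.7 and 19.1 and at 4.31 and 5.37. Their most abundant genes in Ptprc-low cells were Atp1b1, a sodium pump subunit (0.621 and 15.99), and Cd63, a tetraspanin of endosomes (1.31 and 3.89). Without Atp1b1 and Cd63 both sums were lower in Ptprc-low than in Ptprc-high cells. Tmem119, known from microglia, was at 0.0537 and 0.682 and was seen in 72.0% of Ptprc-low cells, whereas P2ry12, another microglial gene, was at 0.138 and 0.101 and was seen in 12.1% of them.

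Slc47a1, seen in each of the Ptprc-low cells, served as a gate with no class II limit. Cells with at least 3 Slc47a1 UMIs and within the other limits of the rule numbered 275, 200, 224 and 218 in the mice, and 148 of these 917 were class II-high, while 887 held no Ptprc UMI. Whether the Slc47a1 cells that were not members are of the same kind as the members was not tested. This gate was chosen after the members had been seen, so its values carry no test. Class II UMIs per 10000 in all Slc47a1 cells were 3.26, 3.18, 8.57 and 8.70. The adult mice lay together and the aged mice lay together, and the mean was 2.68 times higher in aged mice. At least 20 class II UMIs were found in 7.27%, 7.0%, 24.6% and 27.1% of the Slc47a1 cells, while the number of Slc47a1 cells itself was not higher in the aged mice. Median depth was alike, at 12551, 12362.5, 13432 and 13749.5 UMIs. After each cell was thinned to 2000 UMIs, leaving out 4, 5, 8 and 5 shallower cells, 34.3%, 30.8%, 55.1% and 56.8% still held a class II UMI.

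By gene, H2-Aa was at 137, 131, 365 and 366 CPM (UMIs scaled to a common library total) in the Slc47a1 cells, and its log2 fold change with age was 1.44 (SE 0.0993). Cd74 was at 386, 346, 1025 and 1123 CPM, a log2 fold change of 1.55 (SE 0.110). H2-Ab1 was at 96.6, 77.6, 256 and 263 CPM and H2-Eb1 at 100.0, 104, 233 and 253 CPM, with log2 fold changes of 1.57 (SE 0.126) and 1.26 (SE 0.105). The ages did not overlap for any of these 4 genes, as for 38.6% of the 12864 genes with enough counts, whose median log2 fold change was -0.001. H2-DMa was at 48.2, 44.2, 74.3 and 86.1 CPM (log2 fold change 0.79, SE 0.125), and H2-DMb1 at 77.2, 80.3, 121 and 125 CPM (0.64, SE 0.103). Of the loading list 4 of 6 genes were positive with a median log2 fold change of 0.13. Ctss, Ctsl, Ifi30 and Lgmn overlapped between ages, and Ifi30 (-0.20) and Lgmn (-0.11) were negative. Ciita had 9, 3, 12 and 23 UMIs, which is too few to order the mice. B2m was at 272, 306, 317 and 352 CPM, a log2 fold change of 0.21 (SE 0.111). Of the interferon list 16 of 17 genes were positive with a median log2 fold change of 0.57, and of the class I list 12 of 14 with a median of 0.36.

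Class II in the Slc47a1 cells was also set beside other cells of the same libraries. In C1q-high cells, with at least 30 C1q UMIs per 10000, it was at 7.09, 6.00, 7.86 and 9.03 per 10000. The adult mice thus held more class II per UMI in C1q-high than in Slc47a1 cells (3.26 and 3.18), while in the aged mice the C1q-high values lay on either side of those in Slc47a1 cells (8.57 and 8.70). By cell the order was the reverse, since 13.7%, 12.1%, 25.7% and 30.2% of C1q-high cells held a class II UMI, at a median depth of 6609, 6654, 7159.5 and 7290.5 UMIs, against 58.9%, 62.0%, 78.6% and 82.1% of the deeper Slc47a1 cells. In endothelial cells, which are not known for class II in a healthy brain, the share was 8.98%, 8.21%, 14.6% and 13.9%. Their median depth was 6782, 6554.5, 7411 and 7279 UMIs. At least 20 class II UMIs were held by a mean of 1.98% of C1q-high cells in the adult and 3.95% in the aged mice. In the other cells compared class II was lower. It was at 0.0900, 0.0978, 0.202 and 0.154 per 10000 in cells gated on the endothelial genes Cldn5 and Flt1, and at 0.0933, 0.0908, 0.189 and 0.156 in cells gated on the astrocyte genes Aqp4 and Slc1a2. In 70 cells with collagen transcripts and no Slc47a1 UMI it was at 0.0603, 0.0888, 0.0493 and 0.314, the last of these from 6 UMIs in 7 cells. Class II was thus also higher in the endothelial and astrocyte cells of the aged mice, by ratios of 1.90 and 1.87 beside 2.68 in the Slc47a1 cells, or by 0.0841 per 10000 in the endothelial cells beside 5.42 in the Slc47a1 cells. Without the Slc47a1 cells that held a Ptprc UMI the levels were 3.23, 3.23, 8.50 and 8.32. In those under 20 class II UMIs, none of which is a member, they were 1.91, 1.78, 3.58 and 3.60.

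**Figure D3:**
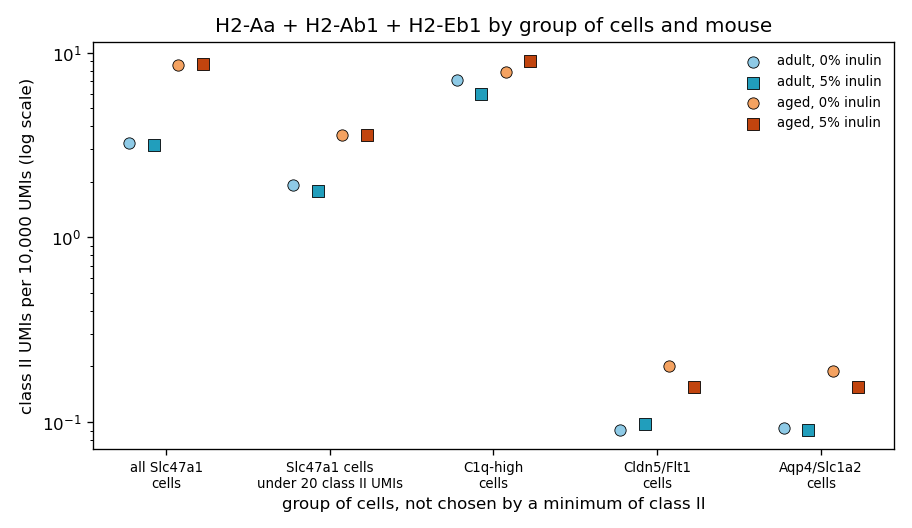
H2-Aa, H2-Ab1 and H2-Eb1 UMIs per 10000 of the summed UMIs of each mouse (vertical, log axis, 1 point per mouse) for 5 sets of cells, with colour for age and shape for diet. In all Slc47a1 cells the adult mice are at 3.26 and 3.18 and the aged mice at 8.57 and 8.70, the C1q-high cells run from 6.00 to 9.03, and the endothelial (Cldn5/Flt1) and astrocyte (Aqp4/Slc1a2) cells reach at most 0.202.

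The cDC2-like cells were tested for age in sums over the cells of each mouse. Their class II was high in every mouse, with H2-Aa at 9639, 10013, 16317 and 11891 CPM and H2-Eb1 at 9904, 10806, 16829 and 12624, given without a test. Of 2853 genes tested (edgeR quasi-likelihood, adjusted p under 0.05 and fold above 1.5), 1 was higher (0.0351%) and 12 were lower (0.421%) in aged mice. The count was not stable, and was larger with diet as a covariate and with a mouse left out, as given further below. The higher gene was Marcksl1, an actin-binding MARCKS family member, at 36.1, 37.8, 167 and 297 CPM, which rose by a log2 fold change of 2.71 (SE 0.397, edgeR adjusted p = 0.0288). It was seen in 7, 4, 5 and 9 cells.

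Of the 12 genes that fell, 5 are on the list of 8 markers of dividing cells. These were the mitotic genes Ube2c, Birc5 and Mki67, each at 0 in both aged mice, with Top2a and Stmn1. They were the 5 members of that list with enough counts to be tested, which they had through the adult mice. That every tested member fell was thus largely set by the count filter and is a description only. The other genes that fell were Tubb4b, Hmgb2, the histone genes H2afx, Hist1h2ap and Hist1h2ae, and Mmp12 and Fcrls. In the aged mice Tubb4b held 4 and 9 UMIs, H2afx 2 and 5, and Hist1h2ae 1 and 8. Their calls thus also rest on counts in the adult mice. Top2a, which untangles DNA at division, was at 220, 290, 11.1 and 19.1 CPM, and Hmgb2, a chromatin protein, at 957, 781, 189 and 187 CPM. At least 2 UMIs of Mki67 and Top2a were held by 7 of the 63 cells, namely 4, 2, 0 and 1. Histone genes come in near-identical copies, and how reads were divided among them is uncertain. Without the 7 cells, an alternative added after the data had been seen, 2431 genes were tested and 2 were called (0.0823%), both lower. Hmgb2 and Hist1h2ap then turned to log2 fold changes of 0.37 and 0.27. Marcksl1 was at 2.66 and lost its call (edgeR adjusted p = 0.141). Stmn1 and Tubb4b stayed lower, at -3.14 and -1.76, and lost their calls (edgeR adjusted p = 0.420 each).

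Mmp12 and Fcrls were the genes called with and without the dividing cells. Their UMIs were 116, 37, 3 and 4 for Mmp12 and 73, 24, 2 and 2 for Fcrls. Both thus had enough counts to be tested through the adult mice, and their fall is a description only. Mmp12, the macrophage metalloelastase, was at 349, 233, 33.3 and 19.1 CPM, a log2 fold change of -3.61 (SE 0.447, edgeR adjusted p = 0.0225), and -4.09 without them (adjusted p = 0.0306). It rested on few cells, being seen in 6, 3, 1 and 2, and 1 cell held 51.9% of its 160 UMIs. Fcrls, an Fc receptor-like gene known from microglia, was at 220, 151, 22.2 and 9.57 CPM, a log2 fold change of -3.75 (SE 0.519, edgeR adjusted p = 0.0260), and -4.03 without them (adjusted p = 0.0375). It was seen in 10, 5, 1 and 2 cells. The adult mice lay above the aged mice for both genes, and the ages did not overlap for 39.4% of the genes tested.

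**Figure D4:**
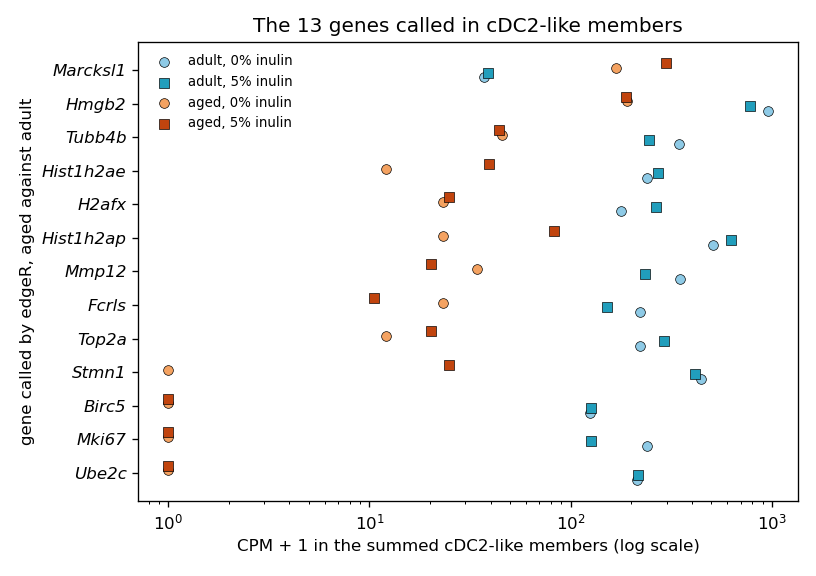
CPM + 1 (horizontal, log axis) of the 13 genes called between ages in the summed cDC2-like cells, 1 point per mouse, with colour for age and shape for diet. Marcksl1 is the gene that is higher in both aged mice, and the 12 others are lower, with Ube2c, Birc5 and Mki67 at 0 in both aged mice.

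Antigen presentation genes were not among the calls in cDC2-like cells. Cd74 was at 23865, 28388, 37836 and 26262 CPM, so the ages overlapped (log2 fold change 0.29). Of 10 loading genes 8 were positive with a median log2 fold change of 0.32, of 13 class I genes 11 with a median of 0.32, of 6 costimulation and inhibition genes 6 with a median of 0.81, and of 8 interferon genes 8 with a median of 1.30, beside a median of 0.02 over all genes tested. Cd86 did not overlap between ages, at 75.2, 94.5, 222 and 168 CPM (log2 fold change 1.19, edgeR adjusted p = 0.283). Isg15, an interferon-induced ubiquitin-like protein, was at 42.1, 18.9, 66.7 and 416 CPM (2.99, edgeR adjusted p = 0.218), so its value rested on the aged mouse on 5% inulin. These list medians are descriptions and none of their genes passed the test.

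Sums over all members mix the Ptprc-high, Ptprc-low and Ttr-high cells, and fewer cells of a kind and less RNA per cell cannot be told apart in such sums. Of 10994 genes tested between ages 0 were higher and 0 lower in edgeR (0%), with 1371 at an unadjusted p under 0.05, while DESeq2 called 7 higher and 97 lower. The ages did not overlap for 43.7% of genes. Cd74 was at 10054, 5832, 3856 and 3754 CPM, a log2 fold change of -1.06 (SE 0.393, edgeR adjusted p = 0.366), and the chain H2-Aa was at 3921, 2050, 1487 and 1485 CPM. The part that the shift from Ptprc-high to Ptprc-low cells had in these values was not tested. In the Ptprc-high cells alone, a test added after the data had been seen, edgeR called 0 of 4505 genes higher and 0 lower with age. The counts were the same with diet as a covariate, while DESeq2 called 4 higher and 11 lower. Within the Ptprc-high cells Cd74 was at 195, 183, 195 and 186 per 10000, so the ages overlapped. Within the Ptprc-low cells it was at 16.8, 16.6, 21.7 and 20.5 per 10000, higher in both aged mice by a ratio of 1.26 and thus opposite to the order in the sums.

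In the fit reported the gene lists had no called member, so they are described by their counts and medians. Of 10 class II loading genes 0 were positive, with a median log2 fold change of -1.21 against -0.07 over all genes. The ages did not overlap for 9 of them, beside 43.7% of all genes tested. Examples are Ctss at 547, 355, 210 and 177 CPM and Ifi30 at 380, 257, 97.2 and 162 CPM. Of 17 dendritic cell factors and growth receptors 4 were positive with a median of -1.50, with Irf8, a factor of dendritic cells and monocytes, at 121, 166, 18.2 and 43.5 CPM. Of 12 chemokine receptors and adhesion genes 1 was positive (median -1.48), with Ccr2, the receptor by which monocytes leave the marrow, at 294, 173, 91.0 and 75.3 CPM. Of 12 pattern recognition genes 1 was positive (median -1.10), with Cd209a at 547, 239, 74.1 and 52.7 CPM. Of 7 costimulation and inhibition genes 1 was positive (median -1.21), and of 11 cytokine and chemokine genes 5 were (-0.08). Of 12 microglial activation genes 2 were positive (-0.36), and of 2 fatty acid sensing genes 2 were (0.38).

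Immediate early and heat shock genes, which tissue dissociation can induce, had 0 of 17 positive with a median of -1.20. Fos was at 802, 609, 294 and 242 CPM, and all 17 were lower in both aged mice than in both adult mice. In these sums the ages did not overlap for 43.7% of all genes tested. In the cDC2-like cells the same list ran the other way, with 11 of 17 positive and a median of 0.31. In the Ptprc-low cells 0 of the 15 tested were positive, with a median of -0.85. In the sums over all members the interferon list had 17 of 19 genes positive and a median of 0.60. Isg15 was at 35.3, 28.0, 122 and 84.9 CPM and Oasl2 at 39.7, 23.0, 75.5 and 73.9 CPM, each higher in both aged mice, at edgeR adjusted p = 0.164 and 0.197. Of 14 class I genes 5 were positive (median -0.27), and of 12 class II control genes 3 were (median -0.04), with Ciita at 103, 70.0, 39.5 and 27.7 CPM.

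The Ptprc-low cells were also tested for age on their own, a test added after the data had been seen. Of 9060 genes tested, 2 were higher (0.0221%) and 6 were lower (0.0662%) in aged mice. The clusters in these sums shifted with age, since the fibroblast-like cluster gave 10, 8, 15 and 7 of the 20, 15, 58 and 64 cells, the cluster led by Prg4 and Mal 3, 0, 8 and 24, and that with Fbln1, Bche and Gjb6 1, 1, 8 and 17. The part of this shift in the values below was not tested. S100a6, a calcium-binding protein, was at 28.8, 26.7, 191 and 166 CPM and rose by a log2 fold change of 2.67 (SE 0.244, edgeR adjusted p = 0.000364). The other higher gene, C130026I21Rik, was at 4.12, 5.94, 69.9 and 49.995 CPM (3.57, edgeR adjusted p = 0.0146). Among the genes that fell, Fos was at 179, 131, 66.5 and 65.04 CPM (log2 fold change -1.26, edgeR adjusted p = 0.0363), the one called member of the immediate early and heat shock list. Enpp2, which encodes autotaxin, was at 233, 252, 89.4 and 91.7 CPM (-1.41, edgeR adjusted p = 0.00449). The others were Alpl, Parm1, the chaperone gene Hspa8 and Ttr, which was at 2891, 2406, 1231 and 1371 CPM (-1.03, edgeR adjusted p = 0.0368). Ttr and Enpp2 were also the first leading genes of the Ttr-high cluster. At least 2 UMIs of the choroid markers Ttr and Kl were held by all 258 members. The part of choroid transcripts in the falls of Ttr and Enpp2 was not tested. The count of called genes fell to 3 with diet as a covariate and was 34 to 145 with a mouse left out.

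Whether the members changed with age as microglia did was tested against C1q-high cells, that is, cells at or above 30 C1q UMIs per 10000 within the other limits and with no limit on class II. These numbered 1667, 1713, 1826 and 1800, and each mouse gave both sums, with the mouse as a block. Of 16074 genes tested, the change with age differed for 214, being more positive in the members for 8 (0.0498%) and more negative for 206 (1.28%). The count was larger with no mouse block and without Scrublet calls, and moved widely with a mouse left out, as given further below. The makeup of the members moved with age as given above, and its part in these differences was not tested.

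All 8 genes of the list of dividing cell markers had a more negative change in the members, against 1.28% of all genes tested. At least 2 UMIs of Mki67 and Top2a were held by 8 members, namely 4, 2, 1 and 1 in the mice. The markers thus share few cells and are not independent of each other. With Mmp12, 4 of them were the 5 genes named for the most negative differences. Mmp12 was at 124, 35.5, 1.30 and 1.69 CPM in the members and at 0.898, 0.877, 39.7 and 74.3 CPM in C1q-high cells, so its order of ages was opposite in the 2 sets (difference of log2 fold changes -11.57, SE 0.584, edgeR adjusted p = 0.000973). Mki67 was at 84.3, 22.1, 0.433 and 0 CPM in members and at 8.61, 2.85, 23.0 and 20.8 in C1q-high cells. On a log2(CPM + 1) scale aged minus adult was -5.21 in members and 1.91 in C1q-high cells. Top2a, Ube2c and Pclaf, a clamp-associated replication gene, showed the same order, with differences of -7.34, -7.19 and -11.97 in the fit, the last of which depends on the prior count because Pclaf was at 0 in both aged sums of members.

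Of the 14 genes on the list of microglial activation, 4 had a more negative change in the members, namely Lgals3, Spp1, Lpl and Tyrobp, beside 1.28% of all genes tested. The median difference over the list was -2.36, with 0 of 14 positive. Itgax, the integrin CD11c, was at 59.7, 40.3, 6.93 and 10.8 CPM in members and 7.63, 4.46, 61.4 and 71.6 in C1q-high cells (difference -5.97, edgeR adjusted p = 0.000973). Lgals3, the lectin galectin-3, was at 599, 303, 151 and 133 against 36.7, 24.1, 259 and 427 CPM (-5.08, edgeR adjusted p = 0.00277), and Clec7a, a receptor of fungal glucans, was at 59.7, 44.2, 20.4 and 25 against 36.1, 20.3, 240.0 and 335 CPM (-4.57, adjusted p = 0.00142). Spp1, or osteopontin, was at 85.3, 56.7, 118 and 108 CPM in members and at 47.7, 95.6, 1448 and 2130 in C1q-high cells (-4.01, edgeR adjusted p = 0.0246). Apoe and Cst7 of the same list missed the threshold, with differences of -2.69 and -3.83 (edgeR adjusted p = 0.0730 and 0.278).

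For antigen presentation, B2m was at 757, 608, 466 and 482 CPM in members and at 1330, 1282, 2689 and 2867 in C1q-high cells (difference -1.61, edgeR adjusted p = 0.0343). Within the Ptprc-high members B2m was at 11.0, 14.4, 17.1 and 18.1 per 10000, higher in both aged mice and thus opposite to the sums over all members, while within the Ptprc-low members it was at 4.87, 4.55, 3.50 and 3.39. Tyrobp, called above, was at 15.5, 19.0, 17.5 and 18.7 per 10000 in the Ptprc-high members, where the ages overlapped. H2-K1 and H2-D1 differed by -1.62 and -1.91 (edgeR adjusted p = 0.0364 and 0.0308), and Cd74 by -1.77 (0.0493). In C1q-high cells taken alone, Cd74 rose with age by a log2 fold change of 0.81 (SE 0.109, edgeR adjusted p = 0.00263), among 5.61% of 16196 genes called higher.

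Over all genes tested 1.28% were called more negative in the members and 0.0498% more positive. Other lists also held genes whose change was more negative in the members, and 0 genes of these lists were called more positive. Of the 17 immediate early and heat shock genes these were 6, namely Fos, Atf3, Zfp36, Fosb, Junb and Ier2, with a list median of -1.73. Fos was at 775, 585, 287 and 239 CPM in members and at 309, 322, 475 and 523 in C1q-high cells (difference -2.02, edgeR adjusted p = 0.0265), so its order of ages was opposite in the sets. Of 10 loading genes these were H2-DMb2 and Ifi30, of 15 class I genes H2-Q7 beside the 3 above, and of 9 costimulation and inhibition genes Cd83. Of 17 dendritic cell factors and growth receptors they were Itgax, Csf2ra and Csf2rb, and of 16 pattern recognition genes Clec7a, Tlr2, Clec4a2 and Cd209a. The interferon list of 20 had Ifi27l2a and Ifi204, the 18 cytokine and chemokine genes had Tnf and Cxcl16, and the 14 chemokine receptors and adhesion genes had Itgb7 and Itgal. The lists of class II control (12 genes) and of fatty acid sensing (5) had 0.

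The more positive genes were Bmp4, Scd1, Slit2, Apod and S100a8 among those named. Bmp4, a secreted growth factor, was at 221, 135, 402 and 388 CPM in members and at 9.28, 7.16, 6.42 and 5.95 in C1q-high cells (difference 1.58, edgeR adjusted p = 0.0318), and in Ptprc-high members alone its difference turned to -1.01. Apod, an apolipoprotein, was at 181, 135, 265 and 358 CPM in members (2.08, edgeR adjusted p = 0.0291), and Slit2, a guidance ligand, at 119, 71.1, 157 and 159 CPM (1.70, adjusted p = 0.0444). Scd1, a fatty acid desaturase, differed by 1.66 (edgeR adjusted p = 0.0478). S100a8, a neutrophil and monocyte gene, was at 9.60, 12.5, 24.7 and 72.3 CPM in members and at 366, 287, 49.3 and 310 in C1q-high cells (3.25, edgeR adjusted p = 0.0291), so in C1q-high cells it rested on the aged mouse on 0% inulin.

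**Figure D5:**
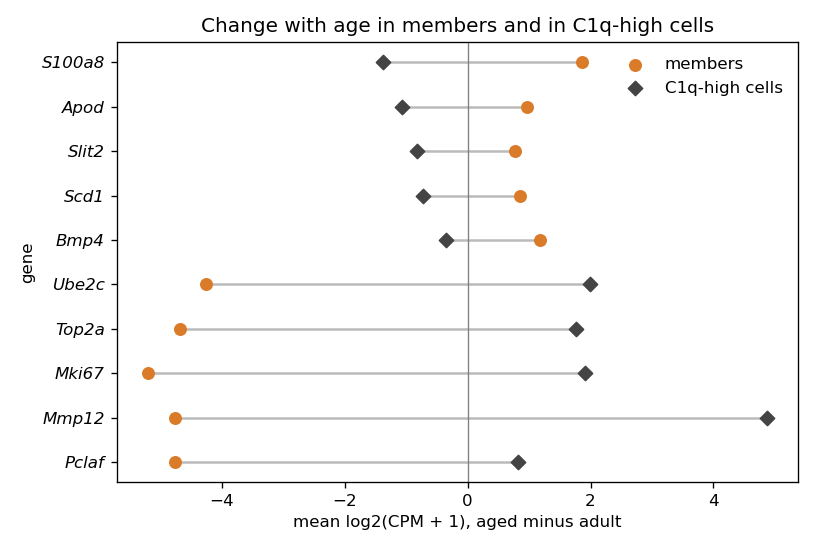
Mean log2(CPM + 1) of aged minus adult mice (horizontal axis) for the 10 named genes, with a circle for the members and a diamond for the C1q-high cells. For every gene shown the circle and the diamond lie on opposite sides of 0, and Mmp12 is at -4.76 in the members and 4.87 in C1q-high cells.

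Diet made no call in the members in the fit reported, though genes were called with no filter on low counts. Of 10994 genes tested between 5% and 0% inulin, 0 were higher and 0 lower in edgeR (0%), with 157 at an unadjusted p under 0.05, while DESeq2 called 0 higher and 4 lower. Cd74 was at 10054 and 3856 CPM on 0% and at 5832 and 3754 CPM on 5% inulin, so the diets overlapped. Within each age Cd74 was lower on 5% inulin, and a comparison of 2 mice against 2 does not take age into account. With age as a covariate, edgeR called 0 of 10994 genes higher and 0 lower, with 167 at an unadjusted p under 0.05. Class II in all Slc47a1 cells was 5.91 ± 3.76 per 10000 on 0% and 5.94 ± 3.90 on 5% inulin (SD, n = 2), a difference far within the spread between mice.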

How the data were processed

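Whole brains of 4 mice, 1 for each age and diet, were profiled as 1 single-cell 3′ library each. The authors deposited matrices of UMI counts, made with Cell Ranger 3.1.0 on GRCm38 per the labels, with no normalization, and no other column was used. The members and the gene and marker lists were chosen with earlier results of these data known. UMI counts were summed over the members of each mouse and tested with edgeR 4.0.16 (filterByExpr, TMM, quasi-likelihood, Benjamini-Hochberg over all genes tested) as 2 mice against 2, with calls at adjusted p under 0.05 and fold change above 1.5. Adjusted p-values in the report are edgeR's unless DESeq2 1.42.0 is named. The age change was compared between members and C1q-high cells as an interaction with the mouse as a block. The edgeR steps were checked on simulated data. Members were clustered with scanpy 1.11.5 (20 principal components, Leiden resolution 1), and clusters were named only from at least 3 detected markers of a list. Scrublet calls were kept, and left out as an alternative. The text names the called genes with the largest changes at 20 CPM or more, the up to 4 most abundant genes and any called gene of each list, and the leading genes of clusters. The Slc47a1 gate, the cluster groups and their tests, the comparison cells (at least 10 UMIs of Cldn5 and Flt1, 5 of Aqp4 and Slc1a2, or 10 of Col1a1 and Col1a2) and some genes, such as Cd86, Isg15 and Cst7, were chosen after their values had been seen. Of 55573 gene IDs, 55394 matched GENCODE vM21, which gave gene coordinates. P-values measure the spread between these 4 mice. Alternatives were other normalizations, filters, limits, depths, clusterings and each mouse left out.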

Additional observations from a re-analysis of the deposited data

Results flagged for a closer look

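The test of the difference itself found 214 genes whose change with age differed between class II-high cells and C1q-high cells. It was an edgeR interaction, at adjusted p under 0.05 and fold above 1.5, and is why these results were set apart. The count of 214 moved widely with the alternatives given below. The difference of log2 fold changes was -11.97 for Pclaf, -11.57 for Mmp12, -9.88 for Mki67, -7.34 for Top2a and -7.19 for Ube2c. It was 1.58 for Bmp4, 1.66 for Scd1, 1.70 for Slit2, 2.08 for Apod and 3.25 for S100a8. Few members were dividing, since 8 held at least 2 UMIs of Mki67 and Top2a, namely 4, 2, 1 and 1 in the mice, and all 8 were Ptprc-high. The Ptprc-low cells gave 54.1%, 30.1%, 71.7% and 73.7% of the members' UMIs. Beyond the fit with Ptprc-high members alone, the part of this shift in the differences was not tested.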

How the results depend on the processing

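The counts of called genes were the least stable values. Between ages, all members gave 0 genes in the fit reported, 104 with DESeq2, 851 with no filter on low counts, 19 with an upper limit on UMIs, 75 when thinned to 2000 UMIs, 222 at 40 or more class II UMIs, 653 at 20 or more class II UMIs per 10000, 814 without the Ttr-high cluster (added after seeing the data) and 0 to 899 with a mouse left out. Between diets they gave 4 with DESeq2, 180 with no filter and 0 to 5 with a mouse left out. The cDC2-like cells gave 27 genes with diet as a covariate, 42 to 171 with a mouse left out and 2 without the dividing cells (added after seeing the data), where Hmgb2 and Hist1h2ap turned to 0.37 and 0.27. The Ptprc-low cells gave 8 genes, 3 with diet as a covariate and 34 to 145 with a mouse left out (all added after seeing the data). The interaction gave 1013 genes with no filter, 350 without Scrublet calls, 499 with no mouse block and 41 to 996 with a mouse left out, and Bmp4 turned to -1.01 in Ptprc-high members alone (added after seeing the data). The causes were not tested. Of the 90 alternative values for the 10 genes named from the interaction, 73 kept direction and call, 16 lost the call and 1 reversed; for the 13 cDC2-like genes these were 91, 5 and 2, and without the dividing cells no value could be had for the other 6 (Ube2c, Top2a, Birc5, Mki67, H2afx and Hist1h2ae).

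The difference in share with diet was -0.115 percentage points and turned to 0.0235 at 40 or more class II UMIs, with a range of -0.496 to 0.266 with a mouse left out. The share of Ttr-high cells among members, aged minus adult, ranged from -7.67 to 3.44 with a mouse left out. In all Slc47a1 cells the log2 fold changes with age ranged from 1.33 to 1.56 for H2-Aa, 1.14 to 1.74 for H2-Ab1, 1.19 to 1.32 for H2-Eb1 and 1.38 to 1.64 for Cd74 over 12 settings, all added after seeing the data. The labels give no replicate numbers and tie the ages by diet alone. The fits with diet as a covariate, which pair the ages by diet, are those given above, with 0 genes in all members. With 2 mice an age, no exact permutation test could pass 0.05, and a gene with 0 UMIs in the members lies below 0.00427 per 10000, counting error only.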

Other observations

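Marker lists of other cell types gave values that belong to no comparison. Plasma cell, natural killer and mast cell gates, of at least 2 UMIs over 2 markers each, held 0 members each, and the T cell gate 2, both in the aged mouse on 5% inulin. Ptprc-high cells of the adult mouse on 5% and the aged mouse on 0% inulin held endothelial markers at 35.6 and 32.2 UMIs per 10000, against 5.60 and 7.54 in the other two mice, with Cldn5 as the most abundant. Ccl5, a T cell and monocyte chemokine, was at 12.1, 22.0, 14.6 and 197 CPM in all members, so it stood out in the aged mouse on 5% inulin. Igkc, the immunoglobulin kappa constant chain, was at 0.0422, 0.0665, 0.389 and 0.181 per 10000 in endothelial cells and at 0.00439, 0.0122, 0.299 and 0.136 in Slc47a1 cells, so it was higher in the aged mice in each.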
